A study of Mus musculus with 6 samples.

Results

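The T-box transcription factors are a family of DNA-binding proteins named after the gene T (Brachyury). Followed here are 10 of their genes, Tbx1, Tbx2, Tbx3, Tbx4, Tbx5, Tbx6, Tbx15, Tbx20, Eomes and T, out of 52636 genes in the count tables. They were chosen by name, and each was found once by its Ensembl identifier in all 6 libraries. All libraries come from E14, a mouse embryonic stem cell line derived from a blastocyst. Before differentiation the cells grew in serum with LIF, the MEK inhibitor PD0325901 and the GSK inhibitor CHIR99021. LIF and both inhibitors were withdrawn and all 6 cultures then received retinoic acid, a vitamin A derivative, at 5 µM (the labels write µm) for 4 days. The groups are wild type, with 3 libraries, and knockout, with 3 libraries from cells without the enhancer cluster that the series title ties to HoxB genes and neural progenitors. Replicates are described as biological, without saying whether the knockout cultures came from 1 clone or several, and the sources used here do not give the deleted coordinates. The p-values thus measure the spread between these cultures, which may be smaller than that between clones.

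T-box proteins share a DNA-binding domain, the T-box, that recognises a short core element, and differ in whether they activate or repress. T, Eomes and Tbx6 act in the primitive streak and in newly formed mesoderm downstream of Wnt, FGF and Nodal signals. Tbx2 and Tbx3 are mainly repressors, and Tbx3 is also active in naive embryonic stem cells. Tbx4 and Tbx5 are activators of limb and heart development, while Tbx1, Tbx15 and Tbx20 pattern the pharynx, the limb and trunk mesenchyme, and the heart.

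Of the 10 genes, Tbx2, Eomes, Tbx15 and Tbx20 fell in the knockout, to between 34% and 52.4% of their wild-type level. Tbx3, the most abundant of the 10, stood at 98.5% of its wild-type level. Tbx1 and Tbx4 did not pass the test either, and Tbx5, Tbx6 and T had too few reads to be tested. In these bulk libraries fewer cells of a type and less RNA per cell cannot be told apart. Knockout was tested against wild type over 15816 genes with the quasi-likelihood F test of edgeR, with p adjusted by the Benjamini-Hochberg method. A gene was called changed at an adjusted p under 0.05, with n = 3 per group throughout.

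Change was common over all genes. Among all genes tested, 68.6% were called, with 34% lower and 34.5% higher, so a call in itself does not set a T-box gene apart. Of the 7 members tested, 4 were lower and 0 higher, and all 7 passed the low-count filter in both groups. The filter required about 1.2 CPM (counts per 1e6 gene counts) in 3 libraries, before TMM scaling. All other CPM values are after TMM scaling. Groups did not overlap for these 4 genes, as for 70.9% of all tested genes in either direction. Tbx2 and Eomes had a log2 fold change of -1 or less, a size that 9.47% of tested genes reached with a call. Among genes with a mean of 5 to 20 CPM, the range of the 4 that fell, 31% were lower. The median log2 fold change was -0.93 over the 7 tested members and 0.0091 over all genes tested. The members' median was -0.21 without knockout replicate 1, -0.24, -0.45 and -0.51 without wild-type replicates 1, 2 and 3, and -0.49 without a filter, where 9 or 10 members were tested. With 7 genes, nothing particular to the family is read from these shares.

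**Figure D1:**
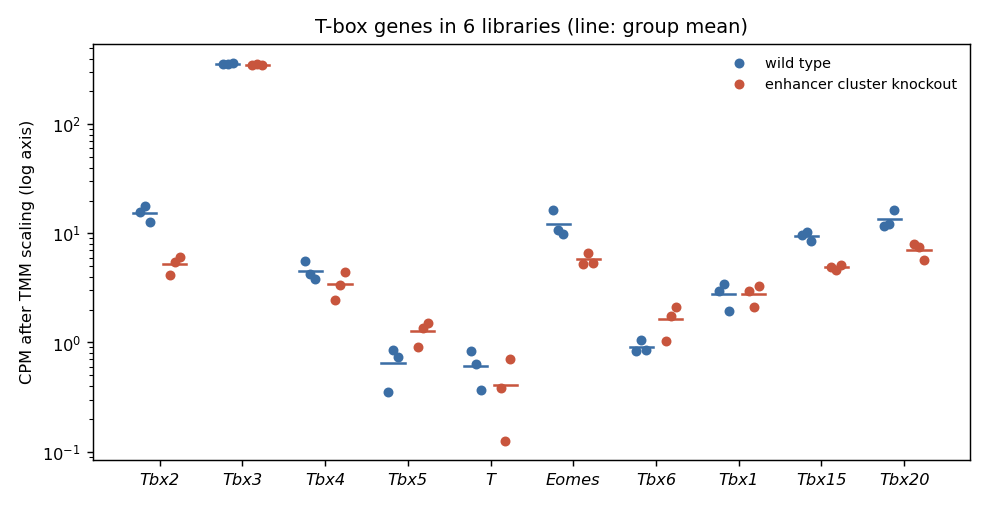
Level of the 10 T-box genes in each library, in CPM after TMM scaling on a log axis. Points are the 3 libraries of each group and lines are group means. Tbx3 lies at 347 to 365 CPM in all 6 libraries, and the groups separate downwards for Tbx2, Eomes, Tbx15 and Tbx20.

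Gene counts per library ran from 7780368 to 9472916. Knockout replicate 1 stands apart in that genes over ribosomal RNA repeats held 1.04% of its counts, against 0.0726 to 0.118% in the other 5 libraries. Mitochondrial genes held 1.67 to 1.73% of wild-type counts and 2.58 to 2.89% of knockout counts. Each call for a member below is the same without knockout replicate 1. The labels name embryonic stem cells, and the title neural progenitors. Of 8 stem cell markers 7 had enough reads to be tested, among them Pou5f1 at 184 ± 5.36 CPM in wild type (SD, n = 3). Of 9 neural progenitor markers 6 had enough reads, from Sox1 at 1.98 ± 0.521 CPM to Nes at 231 ± 6.84 CPM in wild type. Between them lay Cdh2 at 143 and Sox2 at 74.9 CPM, and Fabp7 had 0 counts in all 6 libraries.

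Of the repressors Tbx2 and Tbx3, the first fell and the other did not pass the test. Tbx2 (ENSMUSG00000000093, chromosome 11 from 85832551 to 85841948, GRCm38, plus strand) restrains differentiation and cell-cycle inhibitors in heart and limb. Wild-type replicates 1 to 3 had 15.7, 18 and 12.6 CPM, and knockout replicates 1 to 3 had 4.12, 5.49 and 6.09 CPM. Every knockout library lay below every wild-type library, a separation in this direction that 35.4% of all tested genes also showed. Tbx2 fell by 1.56 on the log2 scale (SE 0.181, 95% interval -1.93 to -1.18, edgeR adjusted p 2.88e-08).

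Tbx3 (ENSMUSG00000018604, chromosome 5 from 119670669 to 119684724, plus strand) is the closest relative of Tbx2 and supports both stem cell self-renewal and the step to primitive endoderm. Wild-type values were 357, 353 and 365 CPM, against 351, 359 and 347 CPM in knockout cells. The groups overlap and their means, 358 ± 6.16 and 353 ± 6.15 CPM, differ by less than the spread between replicates. The log2 fold change was -0.02 (SE 0.038, edgeR adjusted p 0.618). Its 95% interval, -0.10 to 0.06, excludes a change of the size seen in Tbx2, and its sign turned to 0.01 with upper-quartile scaling, so no direction is given. The level of Tbx3 exceeded that of 97.6% of all tested genes.

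The shift of Tbx2 against Tbx3 can be followed within each library. The log2 ratio of Tbx2 to Tbx3 CPM was -4.50, -4.30 and -4.85 in wild-type replicates, against -6.41, -6.03 and -5.83 in knockout replicates. The mean ratio was lower by 1.54 in the knockout, in 3 of 3 libraries against all 3 of wild type. An exact two-sided permutation test over the 6 libraries gave p = 0.1, also 0.1 after adjustment over the 4 pairs of members compared, which is the smallest p that 3 against 3 allows. Without knockout replicate 1 or any other library, Tbx2 stayed between -1.69 and -1.42 (edgeR adjusted p 6.29e-08 to 6.89e-07) and Tbx3 between -0.04 and -0.01.

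Tbx4 and Tbx5, the limb and heart activators, were low. Tbx4 (ENSMUSG00000000094, chromosome 11 from 85886422 to 85916097) lies 44.5 kb from Tbx2 on the same strand. Wild-type libraries had 47, 40 and 31 counts and knockout libraries 19, 27 and 38, or 4.54 ± 0.911 and 3.42 ± 1 CPM. The groups overlap, and at a log2 fold change of -0.40 (95% interval -0.95 to 0.16, edgeR adjusted p 0.195) no change was detected. The interval still holds falls as large as those of Tbx15 and Tbx20. The log2 ratio of Tbx2 to its neighbour Tbx4 was lower by 1.13 in the knockout (exact two-sided permutation p = 0.1, adjusted 0.1, again the smallest possible).

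Tbx5 (ENSMUSG00000018263, chromosome 5 from 119832668 to 119885219) lies 148 kb from Tbx3. It had 3, 8 and 6 wild-type counts against 7, 11 and 13 knockout counts, too few for the test. On the CPM scale all 3 knockout values, 0.902 to 1.52, were above the wild-type values, 0.355 to 0.851. Groups also did not overlap, in either direction, for 70.9% of all tested genes. In the fit without a low-count filter its log2 fold change was 0.94 with a 95% interval of -0.14 to 2.01 (edgeR adjusted p 0.176). The log2 ratio to Tbx5 was lower in the knockout by 1.46 for Tbx4, on another chromosome, and by 1.05 for the neighbour Tbx3. The exact two-sided permutation test gave p = 0.1 each, adjusted 0.1, on these few Tbx5 reads.

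Of the gastrulation factors Eomes, T and Tbx6, only Eomes had enough reads to be tested. Eomes (ENSMUSG00000032446, chromosome 9 from 118478212 to 118486132) specifies definitive endoderm, early mesoderm and trophoblast stem cells. It measured 16.2, 10.7 and 9.82 CPM in the wild-type libraries, against 5.28, 6.61 and 5.39 CPM in those of the knockout. Wild-type replicate 1 was the highest, and no knockout library reached the wild-type range. Eomes fell by 1.09 on the log2 scale (SE 0.197, 95% interval -1.49 to -0.68, edgeR adjusted p 2.77e-05). Leaving out 1 library at a time gave -1.22 to -0.84, and all 6 values passed.

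T (ENSMUSG00000062327, chromosome 17 from 8434423 to 8442496), the defining factor of primitive streak and notochord, was nearly absent. Wild-type libraries held 7, 6 and 3 counts and knockout libraries 3, 1 and 6. With 16 and 10 counts in all, the fit without a filter gave a log2 fold change of -0.58 with a 95% interval of -2.08 to 0.92, so neither a large fall nor a rise could be detected at this depth. Tbx6 (ENSMUSG00000030699, chromosome 7 from 126781483 to 126785560), which directs cells to paraxial mesoderm rather than neural fate, had 7, 10 and 7 wild-type counts against 8, 14 and 18 knockout counts. Its groups overlap on the CPM scale. The fit without a filter gave 0.81 (95% interval -0.10 to 1.72, edgeR adjusted p 0.167).

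**Figure D2:**
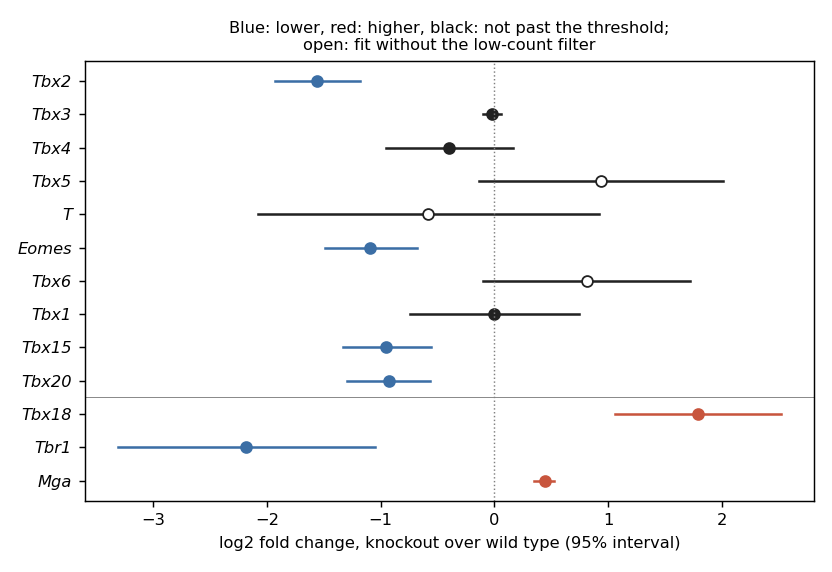
Log2 fold change, knockout over wild type, with its 95% interval, of the 10 genes and, under the line, of the related Tbx18, Tbr1 and Mga, with blue for lower, red for higher and black for not passed. Filled points are from the fit over 15816 genes and open points from the fit without a low-count filter. The intervals of Tbx2, Eomes, Tbx15 and Tbx20 lie below 0, that of Tbx3 is narrow around 0, and those of Tbx5, Tbx6 and T span 0.

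RefSeq promoter windows of build GRCm38.p6 matched 6 of the 10 members, Tbx1, Tbx4, Tbx6, Tbx20, Eomes and T. Those of Eomes and Tbx20 are printed because both genes fell. That of T is printed because it alone among these 6 holds both a T-box and a TCF/LEF core. Each runs over the 250 bases before the start site, 5′ to 3′ in the direction of the gene. The windows are chr9:118477939-118478188 on the plus strand for Eomes, chr9:24774304-24774553 on the minus strand for Tbx20 and chr17:8434173-8434422 on the plus strand for T. Capitals mark AGGTGT, the core that T-box proteins bind, and CTTTGA, the core of TCF/LEF proteins that carry the Wnt signal, on either strand.
Eomes: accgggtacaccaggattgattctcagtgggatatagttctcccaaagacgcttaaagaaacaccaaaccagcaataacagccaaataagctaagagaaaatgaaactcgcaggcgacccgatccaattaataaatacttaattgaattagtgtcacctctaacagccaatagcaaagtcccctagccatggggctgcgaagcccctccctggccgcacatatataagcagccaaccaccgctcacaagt
Tbx20: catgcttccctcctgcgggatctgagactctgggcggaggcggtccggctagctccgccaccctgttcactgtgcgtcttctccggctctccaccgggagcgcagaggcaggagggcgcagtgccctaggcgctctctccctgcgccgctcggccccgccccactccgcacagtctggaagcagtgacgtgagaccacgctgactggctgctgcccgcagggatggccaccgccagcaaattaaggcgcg
T: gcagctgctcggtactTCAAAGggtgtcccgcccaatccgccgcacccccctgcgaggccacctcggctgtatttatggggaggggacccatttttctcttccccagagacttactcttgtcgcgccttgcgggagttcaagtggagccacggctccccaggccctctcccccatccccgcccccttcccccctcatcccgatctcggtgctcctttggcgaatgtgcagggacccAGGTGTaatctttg
The T window holds AGGTGT starting 14 bases before the start site and CTTTGA on the minus strand, read as TCAAAG, starting 234 bases before it. Windows of Eomes and Tbx20 hold no match to these letters, nor to the longer AGGTGTGA and CTTTGAT, which contain them, or to AGGTCA, the core bound by retinoic acid and other nuclear receptors. Of the other members' windows, 1 of 2 for Tbx1 holds AGGTGT. Among all 32851 windows of this length, AGGTGT is in 11.8%, CTTTGA in 13.8% and AGGTCA in 14%, AGGTGTGA in 1.12% and CTTTGAT in 3.21%. The Eomes window has 46.4% G and C and 8 CpG, that of Tbx20 68.8% and 22, against a median of 52.4% and 6 over all windows. The share of G and C is thus below the median for Eomes and above it for Tbx20, and both windows have more CpG than the median.

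The remaining members pattern pharynx, mesenchyme and heart. Tbx20 (ENSMUSG00000031965, chromosome 9 from 24718138 to 24774303, minus strand), required for heart chamber growth, had wild-type values of 11.8, 12.2 and 16.4 CPM and knockout values of 7.99, 7.49 and 5.74 CPM. Tbx20 fell by 0.93 on the log2 scale (SE 0.176, 95% interval -1.30 to -0.57, edgeR adjusted p 4.58e-05). Tbx15 (ENSMUSG00000027868, chromosome 3 from 99240381 to 99354259), a factor of skeletal and dermal mesenchyme, had wild-type values of 9.58, 10.2 and 8.47 CPM. Its knockout values were 4.90, 4.62 and 5.15 CPM. The groups do not overlap for either gene. Tbx15 fell by 0.95 (SE 0.187, 95% interval -1.33 to -0.56, edgeR adjusted p 8.07e-05). With 1 library left out at a time, Tbx20 ranged from -1.03 to -0.78 and Tbx15 from -1.02 to -0.89, and all passed.

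Tbx1 (ENSMUSG00000009097, chromosome 16 from 18580979 to 18590671), a pharyngeal factor that acts together with retinoic acid signalling in the embryo, had 25, 32 and 16 wild-type counts against 23, 17 and 28 knockout counts. At 2.77 ± 0.737 and 2.79 ± 0.599 CPM the group means differ by less than the spread between replicates. The 95% interval of its log2 fold change, -0.74 to 0.74, does not exclude a change of up to 0.74 in either direction.

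Per length of exon, the 10 genes differed widely in level in wild-type cells. Levels were counted as CPM per kilobase (kb) of merged exons. Tbx3 stood at 54.1 ± 0.93, Tbx2 at 4.26 ± 0.739, Eomes at 2.95 ± 0.83 and Tbx15 at 2.51 ± 0.236 CPM per kb. Ranges over the 3 libraries overlap between Tbx2 and Eomes and between Eomes and Tbx15, so the ranges alone do not order these neighbours. Their order within each library was not tested. Tbx4 at 1.33, Tbx20 at 1.13, Tbx1 at 0.789, Tbx6 at 0.508, T at 0.264 and Tbx5 at 0.138 CPM per kb followed. Tbx20, close to Tbx2 in CPM, ranks lower here because its annotated exons span 12 kb.

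In the knockout, neighbours in the order below Tbx3 overlapped more often. Tbx2, Eomes, Tbx15, Tbx4, Tbx6 and Tbx1 had means of 1.44, 1.39, 1.3, 1.01, 0.903 and 0.793 CPM per kb, and each of these overlaps the next in the order, though Tbx2 lies above Tbx1 in every library. Tbx20 followed at 0.589, Tbx5 at 0.271 and T at 0.175 CPM per kb, and Tbx20 does not overlap Tbx5. Summed over the 10 genes, the level without Tbx3 was 11.9 to 15.1 CPM per kb in the wild-type libraries and 6.87 to 8.87 in the knockout libraries. The share of Tbx3 in the summed level of all 10 was 78 to 82.2% in wild type, against 85.5 to 88.5% in the knockout, with no overlap. The share was higher in the knockout, while the level of Tbx3 itself lay between 52.4 and 55.1 CPM per kb in all 6 libraries.

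**Figure D3:**
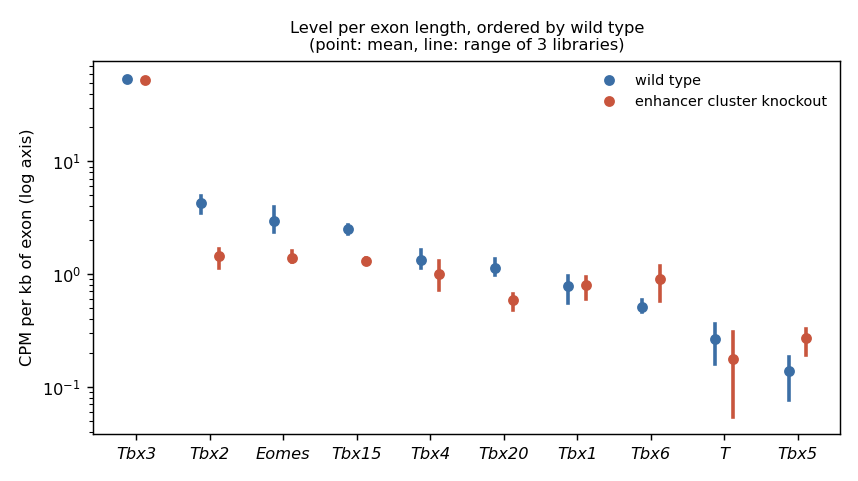
Level per kb of merged exon, on a log axis, for the 10 T-box genes ordered by their wild-type mean. Points are means and lines the range of 3 libraries. The 9 genes below Tbx3 span 0.138 to 4.26 CPM per kb in wild type and 0.175 to 1.44 in the knockout.

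Genes next to the members moved both ways. Both Tbx2 and Tbx4 lie on chromosome 11, the chromosome of HoxB, with 10.4 Mb between Tbx2 and Hoxb13. The T-box gene Tbx21, not a member, lies nearer, 0.73 Mb from Hoxb1. It had 1, 3 and 1 wild-type against 4, 4 and 3 knockout counts, too few for the test. The nearest tested coding genes on each side of the members were taken by a rule added after the data were seen. Of these 16 genes that are not members, 5 rose, 6 fell and 5 did not pass, where 34.5% of all tested genes rose and 34% fell. The counts are near those shares, so nothing particular to the neighbours is read from them. Next to Tbx2, Bcas3 rose by 0.69 (SE 0.0825), and on both sides of Eomes Cmc1 rose by 0.52 and Golga4 by 1.12. Beside Tbx20, Dpy19l1 and Herpud2 were at -0.06 and -0.11 and did not pass. Beside Tbx15, Wars2 was at -0.07 and did not pass, while Spag17, 531 kb away, fell by 0.66. The genes around Tbx3 moved in opposite directions, with Med13l up by 0.39 and Rbm19 at -1.39.

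Outside the 10, the family holds 7 further genes, of which 3 were tested. Mga, which joins a T-box to a MAX-binding domain and represses germline genes, had wild-type values of 255, 243 and 267 CPM and knockout values of 344, 348 and 342 CPM. Mga rose by 0.44 (SE 0.042, edgeR adjusted p 9.43e-10). Its level per kb of exon, 16.6 ± 0.789 CPM in wild type and 22.5 ± 0.189 CPM in knockout cells, lies between those of Tbx3 and Tbx2. Tbx18, a factor of sinus node and epicardium, had 8, 12 and 7 wild-type counts against 31, 24 and 33 knockout counts, a rise of 1.79 (SE 0.353). Tbr1, the neuronal relative of Eomes, had 13, 19 and 13 wild-type counts against 1, 2 and 6 knockout counts and fell by 2.18 (SE 0.549), or by 3.09 without knockout replicate 3. Tbx18 passed the filter only through its knockout values and Tbr1 only through wild type. An exon of D030062O11Rik on the other strand covers 20.6% of the exon length of Tbx18. Tbx10, Tbx19, Tbx21 and Tbx22 had 0 to 4 counts per library.

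Signals that act upstream of T, Eomes and Tbx6 were lower in most cases. Of 14 listed genes 12 were tested, 10 fell and 0 rose, against 34% and 34.5% over all tested genes. The median log2 fold change of the list was -1.61 (0.0091 over all genes). Of the tested genes, Sp5 and Tdgf1 passed the filter only through wild type. Bmp4, which starts mesoderm formation in the epiblast, went from 55.9 ± 3.2 to 13.0 ± 2.03 CPM. Nodal, a ligand needed for Eomes expression, went from 24.8 ± 1.35 to 8.22 ± 1.42 CPM and fell by 1.60 (SE 0.139). The Wnt effector Lef1 fell by 2.40 (SE 0.159) and the Wnt-induced factor Sp5 by 5.11 (SE 0.344). Wnt3, the ligand that induces T in the streak, went from 10.9 ± 0.652 to 2.82 ± 0.97 CPM, and Tdgf1, the Nodal coreceptor, from 5.12 ± 1.06 to 0.604 ± 0.529 CPM. The transducers Smad2 and Foxh1, at 0.02 and 0.22, did not pass. The number of genes lower was 10 in each of 13 alternatives, and the number higher 0 to 2.

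Partners and targets of these factors in streak and paraxial mesoderm held both lower and higher genes. Of 22 listed genes 11 were tested, 6 fell and 2 rose (34% and 34.5% over all tested genes), with a median of -0.65. Cdx1, a posterior patterning factor, fell by 2.45 (SE 0.161), Fgf17 by 2.06 (SE 0.433), Lfng, a modulator of Notch in somite formation, by 1.42 (SE 0.313) and Sox17 by 0.65 (SE 0.12). Snai1, a repressor of E-cadherin, rose by 0.85 (SE 0.0913) and the Notch ligand Dll1, downstream of Tbx6, by 0.80 (SE 0.214). The streak genes below the filter were near 0, with Mixl1 at 7, 10 and 11 wild-type and 0, 0 and 2 knockout counts, Mesp1 at 0 to 2 counts in every library and Msgn1 at 0 counts in all 6. Lfng, Cdx2 and Fgf17, all among the 6 that fell, passed the filter only through wild type. The larger number of falls is thus not read as a result about the list. Exons of other genes on the opposite strand cover 20.5% of the exon length of Dll1 and 16.8% of that of Sox17.

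Heart and limb genes moved both ways. Of 22 listed 19 were tested, 6 rose and 6 fell, with a median of -0.25. These counts are near the shares over all tested genes, 34.5% higher and 34% lower. Gata6, Gata4 and Gata5, cofactors of Tbx5 and Tbx20 that also mark endoderm, rose by 1.03 (SE 0.0452), 0.65 (SE 0.0666) and 1.27 (SE 0.326), and Fgf10, a target of Tbx4 and Tbx5 in limb and lung, by 0.62 (SE 0.176). Nkx2-5, the main cardiac homeobox factor, fell by 1.50 (SE 0.223), from 10.1 ± 2.05 to 3.54 ± 0.923 CPM. The natriuretic peptide genes Nppb, at 33, 26 and 28 against 0, 2 and 6 counts, and Nppa, at 11, 21 and 13 against 0, 6 and 1 counts, fell by 3.30 and 2.52. Nppa was at -4.51 without knockout replicate 2 and Nppb at -4.57 without knockout replicate 3. An antisense gene covers 61.5% of the exon length of Nppa. Hand1, a heart and trophoblast factor, fell by 0.49 (SE 0.0992). Of the tested genes, 6 passed the filter in 1 group only, Nppa and Nppb among them.

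**Figure D4:**
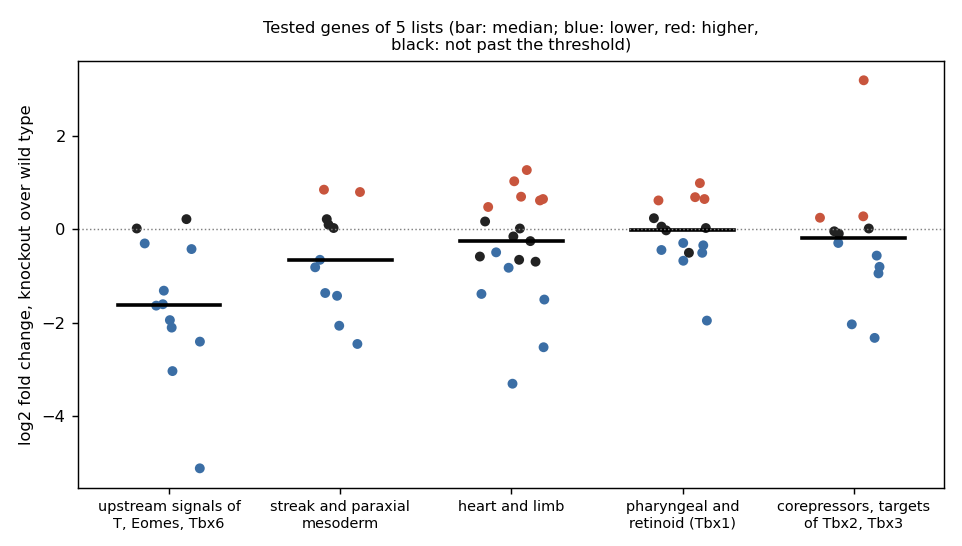
Log2 fold change, knockout over wild type, of every tested gene in 5 lists around the T-box factors, with the list median as a bar. The upstream signals have the lowest median, -1.61, and no gene past the threshold above 0, while the other 4 lists hold genes on both sides.

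Pharyngeal and retinoid genes linked to Tbx1 showed no common direction, with 4 higher and 6 lower of 15 tested and a median of -0.02. The shares over all tested genes were 34.5% higher and 34% lower. Cyp26a1, the enzyme that breaks down retinoic acid, went from 110 ± 2 to 177 ± 10.7 CPM and rose by 0.69 (SE 0.049). Cyp26b1 fell by 0.50 (SE 0.0912), Crkl by 0.34 (SE 0.057) and Shh by 1.95 (SE 0.405). Shh, Eya1 and Cyp26c1 passed the filter through 1 group only. Aldh1a2, the enzyme that makes retinoic acid, rose by 0.65 and Eya1 by 0.99, both at low counts. Aldh1a2 did not pass in 8 of its alternatives (edgeR adjusted p 0.158 without knockout replicate 3, and 0.0258 to 0.158 over all alternatives). Eya1 did not pass with DESeq2, without wild-type replicate 1 or 3 or without knockout replicate 3 (0.0224 to 0.147 over its alternatives). The list count was 6 in place of 10 with DESeq2 and also without wild-type replicate 1.

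A list of corepressors of Tbx2 and Tbx3, genes they repress and pluripotency genes tied to Tbx3 also moved both ways. Of 13 listed 12 were tested, 3 rose and 6 fell (34.5% and 34% over all tested genes), with a median of -0.19. The cell-cycle inhibitors Cdkn1a, Cdkn2b and Cdkn2a, repressed by Tbx2 and Tbx3 in other cells, were at -0.94 (SE 0.0484), -2.03 (SE 0.144) and -0.80 (SE 0.081). Ndrg1, reported as repressed by Tbx2, rose by 3.19 (SE 0.0849), from 12.2 ± 1.82 to 112 ± 4.46 CPM. The corepressor gene Hdac1 fell by 0.56 (SE 0.048), Nanog, which Tbx3 supports in stem cells, by 2.32 (SE 0.0538), and Klf4 rose by 0.28 (SE 0.0658). Gja1, a gap junction gene repressed by Tbx2 in the heart, was at 0.02 and did not pass.

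Markers of several cell types moved with the groups, given here as summed levels. The counts of markers stand beside 34% lower and 34.5% higher over all tested genes. Fibroblast and mesenchyme markers fell in 8 and rose in 2 of 10, and their summed level went from 2660 to 2680 CPM in wild type to 605 to 626 CPM in the knockout. Acta2 and Tagln, at 1020 ± 11.7 and 1040 ± 15.4 CPM in wild type, made up most of that sum, and Prrx1 passed the filter through 1 group only. An antisense gene covers 62.4% of the exon length of Tagln. Cardiomyocyte markers fell in 5 and rose in 1 of 8 (63.2 to 70.7 against 29.6 to 34.5 CPM), with none at 0 counts in all libraries. Of these, Tnnt2, Myh6 and Nppa passed the filter through 1 group only. Trophoblast markers, a list that holds Eomes itself, fell in 6 and rose in 2 of 9 tested, with Tpbpa at 0 and Elf5 at 0 or 1 count per library (2000 to 2050 against 977 to 994 CPM). That sum was mostly Krt8 and Krt18, at 1220 ± 10.2 and 703 ± 15.7 CPM in wild type, keratins of many epithelia, and Cdx2 passed the filter through 1 group only. Stem cell markers fell in 5 and rose in 2 of 7 tested (692 to 728 against 417 to 437 CPM). Neural progenitor markers fell in 3 and rose in 2 of 6 tested (467 to 492 against 147 to 155 CPM). Nes, Cdh2 and Sox2 carried the sum, while Pax6 and Msi1 rose by 1.16 and 0.34. Of 8 primitive streak markers, T and Eomes among them, 2 were tested, Eomes itself and Lhx1, and both fell. The sum over the 8 was 17.2 to 26.7 against 10.6 to 12.2 CPM. Eomes, at 12.3 ± 3.45 CPM in wild type, was its largest term, before Lhx1 at 5.21 ± 1.43 CPM, so the sum mostly repeats the fall of Eomes. Among the markers not tested, Mixl1 had fewer and Fgf8 more counts in the knockout. Primitive and visceral endoderm markers rose in 9 and fell in 1 of 12 (818 to 839 against 2080 to 2170 CPM), with Apoa1 passing the filter through 1 group only. Cubn and Dab2, at 222 and 244 CPM in wild type and 1040 and 514 CPM in knockout cells, were the largest terms of the sum. The part of these shifts in the values of Tbx2, Eomes, Tbx15 and Tbx20 was not tested.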

How the data were processed

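RNA was sequenced in 3 wild-type and 3 enhancer cluster knockout libraries. The authors deposited 1 table for each library, holding raw counts of reads for Ensembl gene identifiers. HISAT2 2.1.0, HTSeq 0.9.1 and DESeq2 1.18.1 are named in the submitters' processing notes, with build mm10. The strand setting is not given in the sources used here, so overlapping genes on opposite strands may not be separated. Per the file contents, 5 closing tallies hold reads given to no gene (no feature 42.33 to 43.51% of reads, aligned to several places 13.82 to 14.98%), and these stayed out of library sizes. Reads given to genes were 36 to 38.4%.

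Symbols, positions and exon lengths came from GENCODE M21 (GRCm38), which matched 52489 of 52636 identifiers. The test used edgeR 4.0.16, run in R 4.3.3 (filterByExpr with a minimum count of 10, TMM, quasi-likelihood F test, Benjamini-Hochberg over 15816 genes, threshold 0.05). Fold changes are log2, knockout over wild type, with the SE from the F statistic and 95% intervals from its t distribution. CPM values are mean ± SD. The procedure was tested on simulated counts. Alternatives were RLE and upper-quartile scaling, DESeq2 1.42.0, other filters, the replicate block, each library left out, and, chosen after seeing the data, ribosomal RNA locus and mitochondrial genes left out. Members and lists were chosen with earlier results of these data known. Every T-box gene is named, and from each other list up to 4 genes per direction with the smallest adjusted p, except that some list genes, though counted, are not reported here. Other list genes are named by value and were chosen after their values were seen.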

Additional observations from a re-analysis of the deposited data

How the results depend on the processing

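Across 13 alternatives the count of T-box genes lower was 4 and higher 0 in each, and each call of the 7 tested members kept its side of the threshold. Of the values for named genes under the alternatives, 533 kept their side of the threshold, and 13 lost the call, most of them of Eya1 or Aldh1a2. The count of changed pharyngeal and retinoid genes was 6 with DESeq2 and 6 to 9 with 1 library left out, and the cause was not tested. The labels do not say whether replicate numbers pair the samples. Deviations of same-numbered samples from their group means correlated at -0.00848 to 0.0178, and those of other pairs at -0.024 to 0.0172. No effect shared by number was seen. With the replicate block 10862 genes were called against 10848, T-box calls stayed at 4, and Aldh1a2 did not pass (edgeR adjusted p 0.0564). Upper-quartile scaling moved the median log2 fold change of all genes to 0.0457. Depth limits T, Tbx5 and Tbx6, at 1 to 18 counts per library.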

Other observations

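Noncoding genes on the other strand beside T-box genes were outside the lists described above. Tbx3os1, antisense to Tbx3, had wild-type values of 19.5, 17.3 and 18 CPM and knockout values of 27.8, 25.6 and 30.5 CPM. It rose by 0.61 on the log2 scale (SE 0.111, edgeR adjusted p 2.75e-05), while Tbx3 was at -0.02, and their exons share 115 bases, 1.74% of the exon length of Tbx3. Tbx3os2 had 6 to 15 counts per library and did not pass (0.19, SE 0.437). Gm33460, antisense to Eomes over 2.84% of its exon length, had 15, 30 and 17 wild-type counts against 8, 10 and 5 knockout counts. It fell by 1.31 (SE 0.417, edgeR adjusted p 0.00745), and passed the filter only through its wild-type values. Reads of the shared stretches may not be separated by strand.

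Among streak and axial genes below the filter, Nkx1-2, a marker of neuromesodermal progenitors chosen after its values were seen, had 10, 6 and 14 wild-type counts and 0 in all 3 knockout libraries. Evx1 had 4, 9 and 2 wild-type counts against 0, 1 and 1 knockout counts. Fgf8 ran the other way, with 1, 3 and 5 wild-type counts against 11, 12 and 7 knockout counts.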
